A study of Solanum lycopersicum with 21 samples.

Results

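The glutathione and sugar transferases and ABC transporters described here were 60 probe sets of 67795 on a tomato leaf array. Each probe set was taken when it was listed in a readable sheet of the study's table of changed transcripts and its annotation held glutathione S-transferase, glucosyltransferase, glycosyltransferase, ABC transporter or ATP-binding cassette. The sheets listed transcripts that were higher or lower than in the non-treated control (NTC). The measured changes after BP178, after flg15 and after salicylic acid (SA) therefore selected the members, which were chosen by these values. These changes are given below as descriptions, and no support is drawn from counts or p-values of these comparisons. The SA sheet could be read for its first 573 of 2974 rows, which are ordered by falling fold change (FC), and the sheets for jasmonic acid (JA) and ethylene were not read. Of the 60 members, 58 stood on the SA sheet, 6 on the BP178 sheet and 6 on the flg15 sheet, and 49 stood on the SA sheet only. By annotation, 18 were glutathione transferases, 27 were UDP-sugar transferases, 3 were other glycosyltransferases and 12 were ABC transporters.

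Leaf RNA of Solanum lycopersicum cv. Rio Grande was hybridised to 21 arrays, 3 in each of 7 groups, and each array held RNA pooled from 10 plants. Seedlings were transplanted at 2 weeks and treated 2 weeks later, and leaves were taken at 24 h. Experiment 1 held mock-sprayed NTC plants (NTC e1) and plants treated with the antimicrobial hybrid peptide BP178 at 125 µM, SA at 2.5 mM, JA at 2.5 mM or ethylene, and experiment 2 held its own mock-sprayed NTC plants (NTC e2) and plants treated with flg15, a fragment of bacterial flagellin, at 125 µM. Ethylene was released from 1 mM ethephon in 2.5 mM phosphate buffer, in a sealed chamber according to the methods and by spraying according to the labels. No enclosed control was described, so the gas and the enclosure cannot be told apart. The values were deposited on the log2 scale after RMA, which corrects background, normalizes between arrays and summarizes the probes of a set. Array medians were between 2.63 and 2.85, and a value near 2 lay in the dim part of every array. The leaf genes RBCS-1 (11.13 to 11.82) and CAB4 (11.72 to 12.60) were bright on every array, and the fruit genes E8-6 (1.56 to 2.04) and PG2 (1.84 to 2.32) were dim.

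Plants process reactive or toxic small molecules in successive steps. Glutathione transferases couple an electrophilic compound to the tripeptide glutathione, and UDP-sugar transferases attach a sugar to hormones, phenolics and foreign compounds, which makes them more soluble and often inactive. ABC transporters use ATP to move such conjugates, lipids and hormones across membranes: subfamily C is known for loading glutathione conjugates into the vacuole, and subfamily G for export through the plasma membrane. In tomato these families are large and many members lie side by side on a chromosome. Here 30 of the 60 members fell into 10 runs of nearby loci of 1 family, in which successive locus numbers were at most 100 apart and which could have other genes between them. The longest held 7 glutathione transferases from Solyc09g011510 to Solyc09g011630. Relatives of this kind can share probe signal, and probe sequences were not used here, so values of such relatives are not fully separate measurements.

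JA and ethylene offered a comparison in which neither group had chosen the members and no control was involved. Most members were still chosen by large SA changes, and other probe sets chosen in that way were not compared. Counts beside the share of all probe sets therefore do not show a trait particular to these families. After JA, 11 of the 60 members were higher than after ethylene, beside 1.21% of all probe sets, and 3 were higher after ethylene, beside 1.56%. A member was called when the FC was at least 2 in either direction and the Benjamini-Hochberg adjusted p over all probe sets was below 0.05 in limma, with 1 mean per group over the 21 arrays. The median JA minus ethylene difference of the 60 members was 0.12 on the log2 scale, and 46 members were not called in either direction, with differences between -0.36 and 0.96. Among the ethylene arrays, replicate 1 was the highest for 41 of the 60 members, with a median deviation of 0.19 from the group mean. Replicate 3 was the lowest of them for 36 members. By family, 7 of 27 UDP-sugar transferases, 2 of 18 glutathione transferases and 2 of 12 ABC transporters were higher after JA, and each of these families held 1 member that was higher after ethylene. A pooled leaf sample does not separate fewer cells of a type from less RNA per cell, and this holds for every value below.

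**Figure D1:**
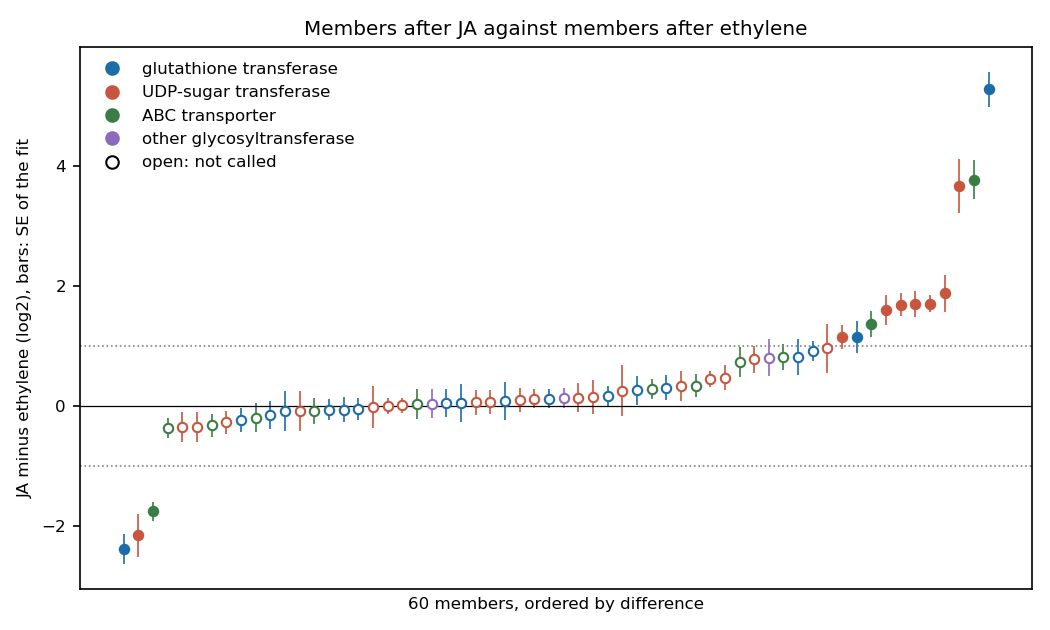
JA minus ethylene difference (log2, y axis) for each of the 60 members, ordered along the x axis by that difference; points are differences of 3-array means, bars the standard error of the fit, filled points called members, and dotted lines an FC of 2. The 11 called members on the right reach 5.27, and the 3 on the left reach -2.38.

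The largest difference belonged to Solyc07g056480, the tomato BI-GST/GPX, a glutathione transferase with peroxidase activity that is known for blocking Bax-induced death in yeast. Its log2 values were 7.67, 7.79 and 7.83 after JA and 2.97, 2.46 and 2.05 after ethylene. The JA arrays lay close together and far above every ethylene array. The difference was 5.27 (SE 0.29, limma adjusted p = 2.28e-10), an FC of 38.7. NTC e1 read 2.28, 2.71 and 3.21, so the ethylene arrays lay among or below those of the control. After SA the same probe set read 7.86, 8.08 and 8.43, and after BP178 it read 3.84, 4.82 and 3.48, above each NTC e1 array but without a call. The other members of its run, Solyc07g056420 and Solyc07g056500, behaved otherwise, with 5 and 1 protein-coding genes of the RefSeq order between them and Solyc07g056480. Solyc07g056420 read 3.35, 3.11 and 4.66 after JA and 2.65, 2.57 and 2.44 after ethylene, and the difference of 1.15 (SE 0.26, limma adjusted p = 0.00785) fell to 0.67 without JA replicate 3, under the FC threshold. Solyc07g056500 read 2.41, 2.52 and 3.97 after JA and 2.51, 1.78 and 2.17 after ethylene, with a difference of 0.81 that was not called. In both, JA replicate 3 stood above the other JA arrays, whereas Solyc07g056480 was high on all 3.

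Among the ABC transporters, Solyc01g105450 differed most. RefSeq names it ABCG3 and describes it as like ABC transporter G family member 11, which in Arabidopsis exports cuticular lipids. It was the only member listed on all 3 sheets. After JA it read 10.69, 10.60 and 10.65, after ethylene 7.18, 6.75 and 6.73, and in NTC e1 6.34, 4.47 and 6.27. The JA arrays were the highest of all 7 groups, above the SA arrays at 10.12, 10.20 and 9.80. The JA minus ethylene difference was 3.76 (SE 0.33, limma adjusted p = 1.35e-07), an FC of 13.6. Solyc03g007530 (ABCC2, of the subfamily known for vacuolar transport of conjugates) read 7.96, 8.06 and 8.00 after JA and 6.78, 6.52 and 6.66 after ethylene. NTC e1, at 7.49, 7.50 and 7.56, lay between them, and neither treatment was called against it, with log2 changes of 0.49 after JA and -0.87 after ethylene. The direct difference was 1.36 (SE 0.22, limma adjusted p = 0.000260).

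A second subfamily C transporter, Solyc07g065320, went the other way. RefSeq describes it as like ABC transporter C family member 3, which in Arabidopsis carries glutathione conjugates and chlorophyll breakdown products. It read 6.87, 6.75 and 6.19 after JA and 8.42, 8.41 and 8.24 after ethylene, with NTC e1 between them at 7.53, 7.57 and 7.37. The JA minus ethylene difference was -1.75 (SE 0.16, limma adjusted p = 2.34e-07). Neither change against NTC e1 was called on its own (-0.89 after JA and 0.86 after ethylene), so the groups stood apart on both sides of the control. The 2 subfamily C members were thus ordered oppositely by the same pair of treatments.

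Solyc02g068900 showed the largest difference in favour of ethylene. RefSeq describes it as a glutathionyl-hydroquinone reductase, an enzyme related to glutathione transferases that removes glutathione from hydroquinone conjugates. It read 8.49, 8.44 and 8.48 after ethylene, 6.04, 6.17 and 6.05 after JA and 5.80, 5.97 and 5.93 in NTC e1. The JA arrays lay just above the control and the ethylene arrays far above both. The JA minus ethylene difference was -2.38 (SE 0.25, limma adjusted p = 2.14e-06), and the change after ethylene against NTC e1 was 2.57 (SE 0.25, limma adjusted p = 1.53e-06), an FC of 5.92.

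The UDP-sugar transferases Solyc12g057060 and Solyc12g057080, which RefSeq describes alike as 85A2-like, lay on opposite sides. Solyc12g057060 read 8.92, 9.30 and 9.55 after JA, 5.56, 5.09 and 6.13 after ethylene and 5.79, 5.43 and 7.46 in NTC e1. It was highest on the SA arrays, at 11.14, 11.39 and 11.32, and on the JA arrays. Its JA minus ethylene difference was 3.66 (SE 0.45, limma adjusted p = 1.41e-05). Solyc12g057080 read 2.71, 2.23 and 2.39 after JA, 4.98, 4.68 and 4.13 after ethylene and 2.75, 3.30 and 2.86 in NTC e1. Here the JA arrays were the dim ones, and the difference was -2.16 (SE 0.36, limma adjusted p = 0.000382). The controls of the 2 experiments also ordered this pair oppositely, since NTC e2 read 3.72, 4.79 and 3.76 for Solyc12g057060 and 5.84, 6.51 and 6.00 for Solyc12g057080.

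**Figure D2:**
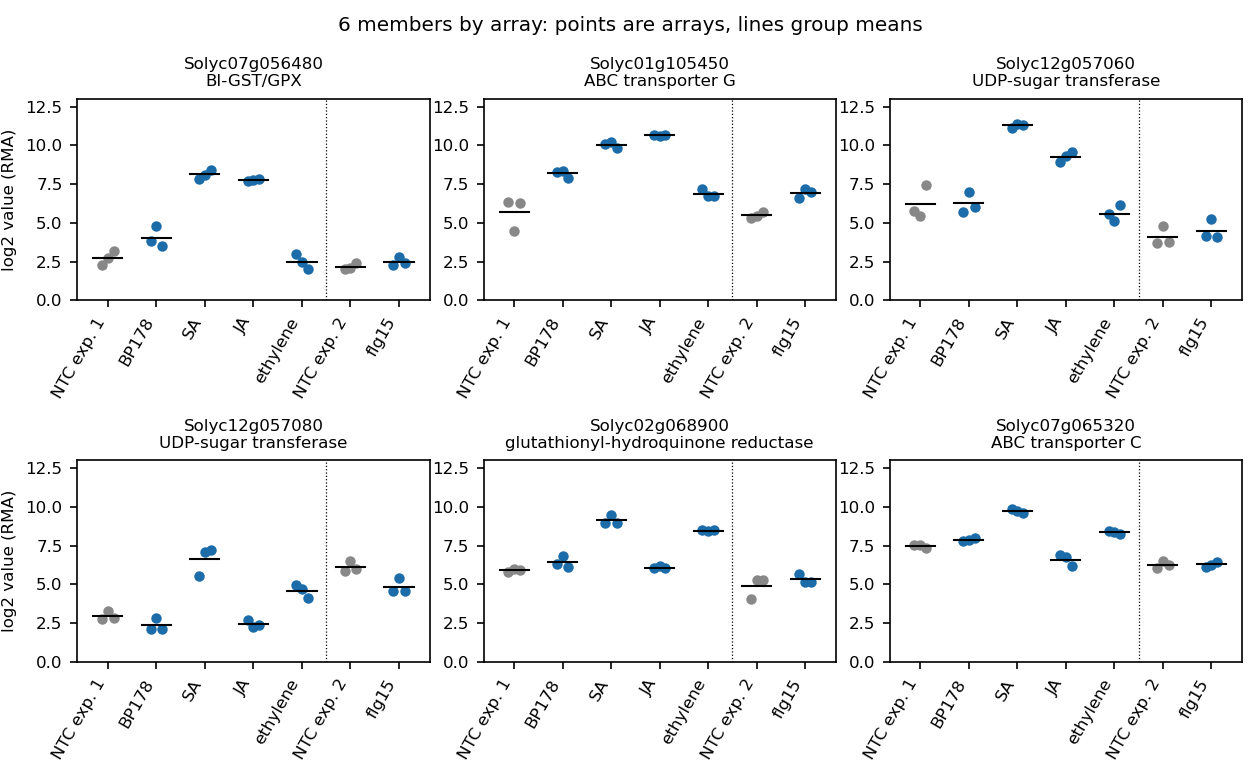
Log2 values (RMA, y axis) of 6 members on every array of the 7 groups; points are arrays, horizontal lines group means, grey points NTC, and the dotted line parts experiment 1 from experiment 2. Solyc07g056480 lies between 7.67 and 8.43 after JA and SA and at or below 4.82 elsewhere, and Solyc12g057080 is dim in NTC e1 and bright in NTC e2.

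The other 6 UDP-sugar transferases that were higher after JA than after ethylene had differences between 1.15 and 1.87. The best separated was Solyc01g095620, described as like hydroquinone glucosyltransferase, which read 9.66, 9.55 and 9.79 after JA and 7.96, 7.96 and 7.99 after ethylene. Its difference was 1.70 (SE 0.14, limma adjusted p = 8.70e-08), and the ethylene arrays lay within the range of NTC e1 at 8.01, 7.73 and 8.23. Solyc09g092500, like the ABA-glucosylating 75C1 of tomato, read 9.77, 9.55 and 9.82 after JA and 8.42, 8.17 and 7.49 after ethylene, with a difference of 1.68 (SE 0.19, limma adjusted p = 3.36e-06). The nearby locus Solyc09g092480 carries the same description. It did not separate the treatments: 4.37, 4.45 and 4.96 after JA against 5.60, 4.81 and 3.63 after ethylene.

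Solyc10g085880, Solyc10g085890 and Solyc12g042600 are all described as 73C4-like, of a group that in Arabidopsis glucosylates hormones and foreign compounds. Solyc10g085880 read 9.08, 8.43 and 9.24 after JA and 8.07, 7.23 and 6.66 after ethylene, a difference of 1.59 (SE 0.26, limma adjusted p = 0.000283). Solyc10g085890 read 4.23, 4.32 and 4.95 after JA and 3.21, 2.52 and 2.69 after ethylene, a difference of 1.70 (SE 0.21, limma adjusted p = 1.39e-05). Solyc12g042600 read 7.21, 7.42 and 7.50 after JA and 6.22, 6.07 and 6.41 after ethylene, a difference of 1.15 (SE 0.20, limma adjusted p = 0.000784). In all 3, every JA array lay above every ethylene array, as in 10.5% of all probe sets. The last of the 6, Solyc03g078490 (85A7-like), read 7.87, 7.71 and 8.64 after JA and 6.84, 5.52 and 6.25 after ethylene, a difference of 1.87 (SE 0.31, limma adjusted p = 0.000362).

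Against NTC e1, 16 of the 60 members were higher after JA, beside 1.64% of all probe sets, and 1 was lower, beside 1.7%. After ethylene 11 members were higher, beside 1.18%, and 1 was lower, beside 0.667%. Both comparisons share the NTC e1 arrays, which had also entered the choice of members through the BP178 and SA sheets, so low control values favour a rise in all of them. The median change of the 60 members was 0.48 after JA and 0.09 after ethylene on the log2 scale. By family, the higher members after JA were 4 of 18 glutathione transferases, 8 of 27 UDP-sugar transferases, 1 of 3 other glycosyltransferases and 3 of 12 ABC transporters. After ethylene they were 3, 6, 0 and 2. None of the 3 other glycosyltransferases passed the limma test after ethylene, and 1 of them had an unadjusted p below 0.05. With the NTC e2 arrays as control, which had chosen only the members of the flg15 sheet, 25 members were called higher after JA, 15 of the 16 among them, and 15 after ethylene. Of all probe sets, 2.3% and 1.69% were higher in these comparisons, which cross the experiments, and NTC e2 was itself the lower control in 13 of the 60 members.

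The largest rises after JA were those of Solyc07g056480 (5.03, SE 0.29, limma adjusted p = 5.44e-10) and Solyc01g105450 (4.96, SE 0.33, limma adjusted p = 3.18e-09). Solyc03g078490 followed with 3.21 (SE 0.31) from 5.36, 4.21 and 5.03 in NTC e1. After ethylene this member rose by 1.33 (SE 0.31, limma adjusted p = 0.0122), and the call was lost without NTC e1 replicate 2 (1.00, adjusted p = 0.0893) or without ethylene replicate 1 (1.02). The rise of Solyc01g105450 after ethylene was 1.19 (SE 0.33, limma adjusted p = 0.0401), and it was 0.58 without NTC e1 replicate 2, which at 4.47 lay far below the other control arrays. Leaving out any 1 of the ethylene arrays also ended that call, with adjusted p between 0.0568 and 0.184.

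Solyc01g107780 rose after both hormones. It is described as a flavonoid 3-O-glucosyltransferase and read 7.32, 7.41 and 7.77 after JA, 7.54, 7.22 and 6.76 after ethylene and 4.66, 4.16 and 5.11 in NTC e1. Its changes were 2.85 (SE 0.25, limma adjusted p = 1.39e-07) and 2.53 (SE 0.25, limma adjusted p = 1.55e-06), and the JA and ethylene arrays overlapped. In the same run, Solyc01g107820, the wound-inducible glucosyltransferase gene twi1, was already bright in NTC e1 at 9.30, 9.00 and 9.25. It read 10.32, 10.24 and 10.14 after JA and 10.26, 10.24 and 10.18 after ethylene, rises of 1.05 and 1.04 that both fell just under the FC threshold without NTC e1 replicate 2 (0.96 and 0.95). The outer members of that run, Solyc01g107770 and Solyc01g107830, changed by 0.08 and 0.37 after JA and by 0.02 and 0.24 after ethylene, none of them called.

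Several further members moved after both. Solyc10g084400, like the lambda class of glutathione transferases, read 8.01, 7.73 and 7.48 after JA, 8.65, 7.74 and 7.30 after ethylene and 6.62, 6.65 and 6.36 in NTC e1. Its ethylene change of 1.35 (SE 0.23, limma adjusted p = 0.000958) was 0.98 without ethylene replicate 1. Solyc09g011630, which RefSeq names ctu1, rose by 1.35 after JA (SE 0.24, limma adjusted p = 0.000584) and by 1.31 after ethylene (SE 0.24, limma adjusted p = 0.00155). Both calls held with any 1 array left out.

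Of the members already described for the direct comparison, Solyc12g057060 rose by 3.03 after JA (SE 0.45, limma adjusted p = 0.000104), Solyc09g092500 by 2.07 (SE 0.19) and Solyc01g095620 by 1.68 (SE 0.14). Solyc10g085890 rose by 1.18 (SE 0.21), Solyc07g056420 by 1.10 (SE 0.26) and Solyc10g085880 by 1.07 (SE 0.26). Each of these last 3 fell below the FC threshold without JA replicate 3, with 0.96, 0.62 and 0.90 in the same order. After ethylene, Solyc12g057080 rose by 1.63 (SE 0.36, limma adjusted p = 0.00802), but against NTC e2 it turned to -1.52 (adjusted p = 0.00864), and without ethylene replicate 1 the adjusted p was 0.0573. Solyc12g014010, described as a flavonoid 3-O-glucosyltransferase, read 4.86, 4.06 and 3.83 after ethylene and 3.35, 3.31 and 2.49 in NTC e1. Its change of 1.20 (SE 0.26, limma adjusted p = 0.00656) was 0.89 without ethylene replicate 1 and 0.92 without NTC e1 replicate 3. Against NTC e2 it was 0.76 (limma adjusted p = 0.0871), so the call also depended on the control.

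Other calls were made after 1 hormone. After JA, Solyc06g009290, an ABC transporter of subfamily B, rose by 1.38 (SE 0.25, limma adjusted p = 0.000713), and Solyc04g016180, 1 of the 3 other glycosyltransferases, rose by 1.77 (SE 0.31, limma adjusted p = 0.000522). Solyc04g006960 (ABCG7) rose by 1.10 after JA (SE 0.21, limma adjusted p = 0.00157) and was just under the FC threshold, at 0.99, without JA replicate 2. After ethylene, Solyc03g114950 rose by 1.18 (SE 0.16, limma adjusted p = 1.00e-04); RefSeq likens it to ABC transporter B family member 25, a mitochondrial exporter in Arabidopsis. Solyc04g016230, like zeatin O-glucosyltransferase, rose by 1.25 after ethylene (SE 0.20, limma adjusted p = 0.000362). The direct difference between JA and ethylene was not called in any of these 5 members. For Solyc04g006960 it was 0.81 (SE 0.21, limma adjusted p = 0.0220), under the FC threshold, and for the other 4 the adjusted p was between 0.0896 and 0.528.

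Solyc05g053890 was the member that fell after both hormones against NTC e1. RefSeq likens it to 72B1, which in Arabidopsis glucosylates monolignols and chlorinated phenols. It read 6.56, 6.45 and 6.56 in NTC e1, 4.92, 5.90 and 5.48 after JA and 6.13, 5.29 and 4.44 after ethylene. The changes were -1.09 (SE 0.28, limma adjusted p = 0.0172) and -1.23 (SE 0.28, limma adjusted p = 0.0120). Both depended on the control and on single arrays: NTC e2 read 5.18, 5.16 and 5.37, against which they turned to 0.20 and 0.05, and the ethylene call was lost without ethylene replicate 3 and the JA call without JA replicate 1 or NTC e1 replicate 1 or 3.

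SA was the treatment through which most members were chosen, and its values are a description. Past the same thresholds were 58 of 60 members, all upwards, beside 2.26% of all probe sets upwards and 2.12% downwards. Because the readable rows are those with the largest FC, the lower end of these changes, 2.01 for Solyc04g006960 and 2.20 for Solyc09g091660, was set by where the reading stopped. The 2 members that came in through the peptide sheets alone had changes of 0.50 (Solyc09g091670) and 0.08 (Solyc08g067610). The median log2 change of the 60 was 3.69, an FC of 12.9, and that of the families was 4.37 for UDP-sugar transferases, 4.10 for glutathione transferases, 2.57 for ABC transporters and 2.36 for the other glycosyltransferases.

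**Figure D3:**
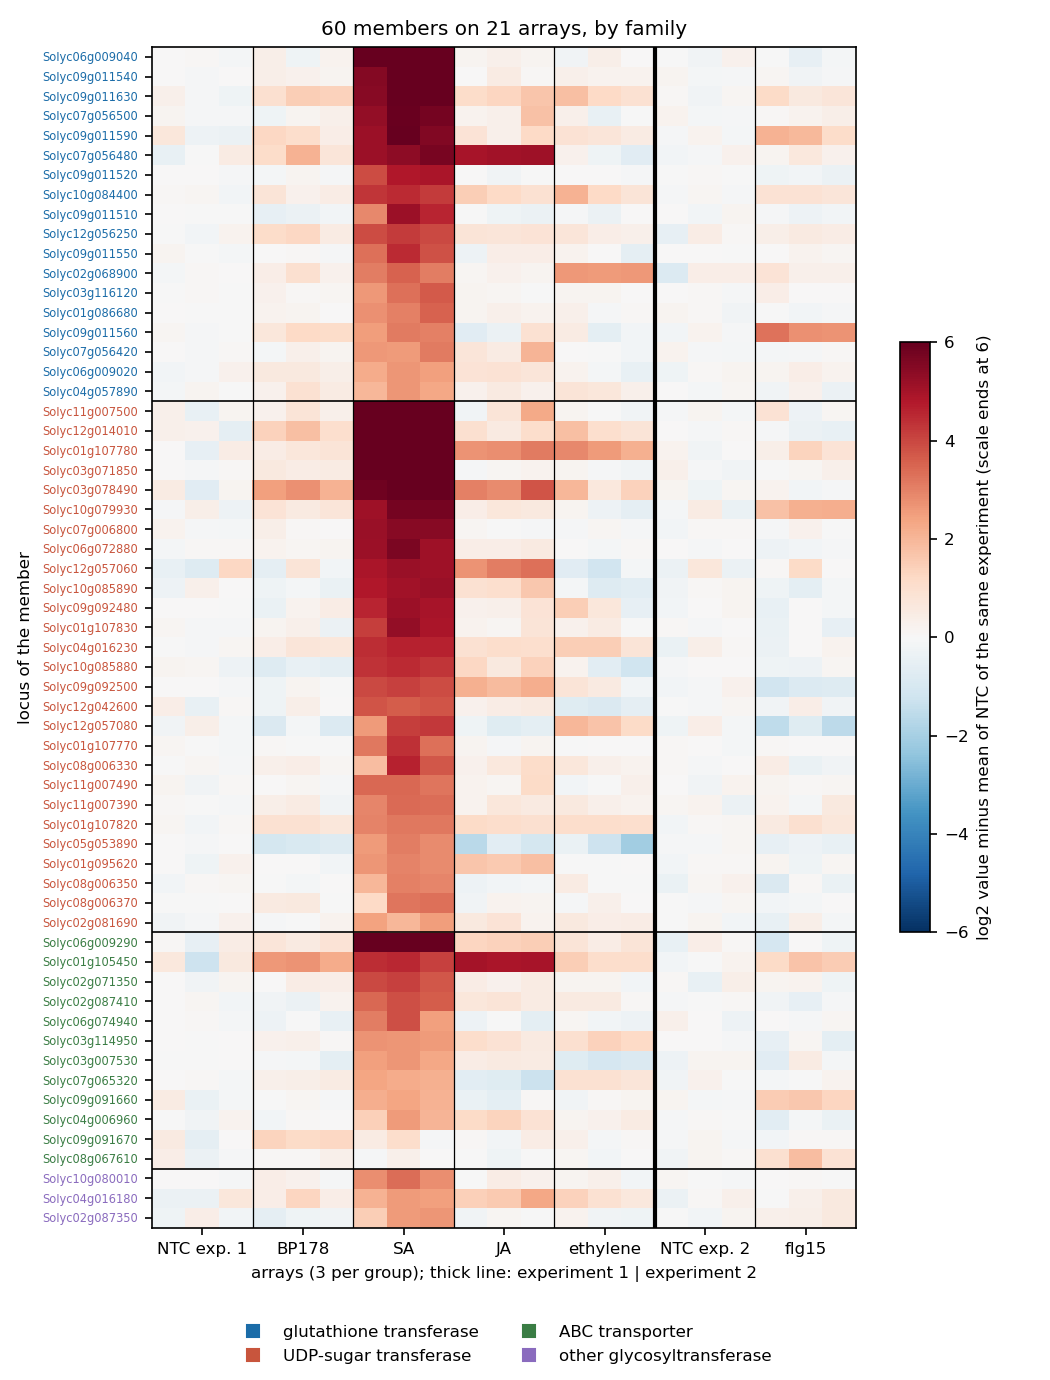
Log2 value minus the mean of the NTC of the same experiment (colour, scale ending at 6) for the 60 members (rows, by family and then by their change after SA) on the 21 arrays (columns, 3 per group). The SA columns are red for 58 rows, and outside them red is patchy, with Solyc07g056480 and Solyc01g105450 the darkest after JA.

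The members reached their SA values from different control levels. The UDP-sugar transferase Solyc11g007500, described as like a cyanidin glucoside glucuronosyltransferase, read 2.99, 2.24 and 2.89 in NTC e1 and 10.47, 10.61 and 10.28 after SA, a change of 7.75. Solyc12g014010 followed with 7.74, Solyc06g009040, a glutathione transferase, with 7.48, and Solyc01g107780 with 6.62. Solyc06g009040 read 2.02, 2.06 and 1.85 in NTC e1 and 9.29, 9.64 and 9.43 after SA, and it was no brighter than 2.48 on any array of another group. By contrast, twi1 rose from its bright control level to 12.18, 12.36 and 12.36. The highest change of an ABC transporter was the 6.19 of Solyc06g009290, from 5.02, 4.47 and 5.41 to 11.14, 11.28 and 11.07.

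For 13 of the 60 members, all 18 arrays outside the SA group lay below the median of their own array. These were 7 glutathione transferases, 5 UDP-sugar transferases and 1 other glycosyltransferase, and no ABC transporter. Their values ran from 1.31 to 2.70 outside SA and from 3.19 to 9.64 after SA. All 13 were chosen through the SA sheet only, which favours members that are bright after SA. The share of all probe sets that were dim on the same 18 arrays was not computed. In NTC e1, 34 of the 60 members lay below the upper quartile of the arrays (4.04) and 26 below their median.

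The glutathione transferase run on chromosome 9 held both kinds. Solyc09g011510, Solyc09g011520, Solyc09g011540 and Solyc09g011550 read between 1.31 and 2.26 on all arrays outside SA and between 4.90 and 8.32 after SA. The members at the other end of the run, Solyc09g011560, Solyc09g011590 and Solyc09g011630, read above the median of the array on all 21 arrays. The SA changes within the run ranged from 2.88 for Solyc09g011560 to 6.21 for Solyc09g011540.

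**Figure D4:**
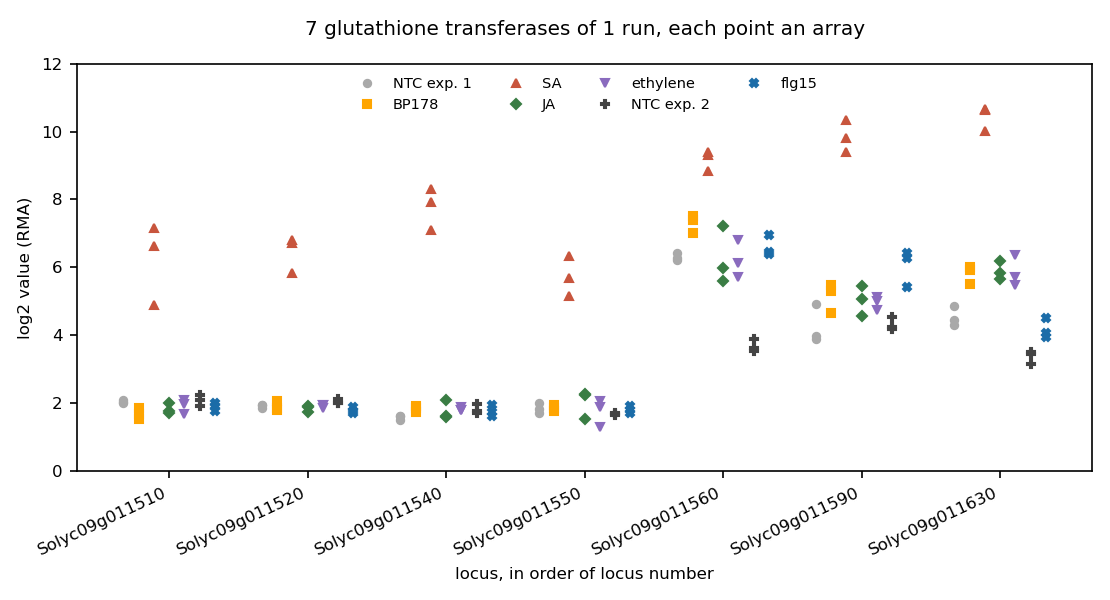
Log2 values (RMA, y axis) of the 7 glutathione transferases of the run on chromosome 9, in order of locus number along the x axis; each point is an array and each symbol a group of 3 arrays. The first 4 loci lie at or below 2.26 except after SA, and Solyc09g011560 lies between 3.54 and 3.89 in NTC of experiment 2, far below every other group.

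Sugar transferases annotated for SA itself were among the members. Solyc08g006330 is annotated as an SA glucosyltransferase, and Solyc08g006350 (gtsatom) and Solyc08g006370 are likened to 74F2, which in Arabidopsis glucosylates SA. Solyc08g006350 read 6.28, 6.53 and 6.56 in NTC e1 and 8.47, 9.47 and 9.39 after SA. Solyc08g006330 went from 2.10, 2.25 and 2.05 to 3.99, 6.75 and 5.87, and Solyc08g006370 from 1.96, 1.97 and 2.01 to 3.19, 5.19 and 5.27. The changes were 2.65, 3.40 and 2.57, below the median of the 60 members, and in all 3 SA replicate 1 was the lowest SA array. That array was the lowest of the SA arrays for 41 of the 60 members, with a median deviation of -0.19 from the group mean. All 58 members kept their call without it, which their choice by large SA changes favoured. After JA and after ethylene none of the 3 was called in limma or had an unadjusted p below 0.05, with changes between -0.20 and 0.65.

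The members outside the rule for named genes, some of which are described above, had SA changes within the range of the rest. Among them, 4 glutathione transferases changed by 2.32 to 4.02, 5 UDP-sugar transferases by 2.31 to 5.38, the 3 other glycosyltransferases by 2.23 to 2.99 and 1 ABC transporter by 2.49.

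The supply of glutathione was looked at through genes of its synthesis that are no members, and a glutathione peroxidase gene is given beside them. GSH1, the enzyme of the first step of glutathione synthesis, read 7.91, 8.16 and 8.09 in NTC e1 and 9.48, 9.49 and 9.57 after SA, a rise of 1.46 (SE 0.12, limma adjusted p = 1.93e-08). GSH2, the enzyme of the second step, read 7.69, 7.78 and 7.52 in NTC e1 and 8.24, 8.39 and 8.28 after SA, and its change of 0.64 (SE 0.15) stayed below the FC threshold. The glutathione peroxidase gene GPXle-1 went from 8.15, 8.03 and 7.89 to 10.14, 10.68 and 10.42, a rise of 2.39 (SE 0.19, limma adjusted p = 1.10e-08). None of these was called against NTC after JA, ethylene, BP178 or flg15 in limma, where GSH1 changed by -0.25, 0.06, -0.12 and -0.23. At an unadjusted p below 0.05 stood the lower GSH1 and GSH2 values after JA.

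BP178 had chosen 6 members, and 5 of the 60 passed the thresholds upwards, beside 0.124% of all probe sets. None passed them downwards in limma, beside 0.0133%. In either direction, 21 members had an unadjusted p below 0.05, beside 4927 of all 67795 probe sets. The BP178 and NTC e1 arrays had entered the choice of members, so these counts are a description only. The 5 past the thresholds were Solyc01g105450 (8.31, 8.37 and 7.92, a change of 2.50), Solyc03g078490 (7.34, 7.59 and 6.94, a change of 2.42), Solyc12g014010 (1.39), Solyc09g011630 (1.27) and Solyc09g091670 (1.24). The last is ABCG47, likened to pleiotropic drug resistance transporters, and it read 3.83, 3.67 and 3.73 after BP178 against 3.02, 1.95 and 2.54 in NTC e1. It was the only member listed for BP178 alone. Just inside the choice were Solyc09g091670 and Solyc09g011630, and just outside it were Solyc09g011560 (0.99) and Solyc12g056250 (0.94). The count of 5 fell to 2 without BP178 replicate 2 or without NTC e1 replicate 3, and to 3 without BP178 replicate 1 or NTC e1 replicate 2.

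flg15 had also chosen 6 members, and 5 passed the thresholds upwards against NTC e2, beside 0.218% of all probe sets. None passed them downwards in limma, beside 0.0384%. In either direction, 13 members had an unadjusted p below 0.05, beside 7825 of all 67795 probe sets. The flg15 and NTC e2 arrays had entered the choice through the flg15 sheet, so these counts are a description only. Solyc10g079930, like zeatin O-glucosyltransferase, read 5.35, 5.75 and 5.78 after flg15 and 3.47, 4.10 and 3.22 in NTC e2, a change of 2.03. Solyc09g011590 changed by 1.72, Solyc09g091660 (ABCG46) by 1.47 and Solyc08g067610 (ABCG44) by 1.23, and Solyc01g105450, with 1.46, missed the adjusted p threshold. Just outside the choice were Solyc01g107780 (0.84) and Solyc09g011630 (0.82). The call of Solyc08g067610 was lost without flg15 replicate 2 (0.91), and that of Solyc09g011590 without flg15 replicate 1 or NTC e2 replicate 3.

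Solyc09g091660 and Solyc09g091670 are next to each other in the RefSeq order and carry the same description. The choice of members itself split this pair between the peptides. Solyc09g091660 was listed for flg15 and not for BP178, and Solyc09g091670 for BP178 alone. The BP178 call of Solyc09g091670 was lost without any 1 of the BP178 arrays, and without NTC e1 replicate 2 or 3. Solyc09g091660 read 7.56, 7.67 and 7.37 after flg15 and 6.23, 5.94 and 6.01 in NTC e2. Its NTC e1 arrays, at 7.44, 6.53 and 6.84, overlapped those of flg15, and its change after BP178 against NTC e1 was 0.00. Solyc09g091670 read 2.03, 2.26 and 2.28 after flg15 and 2.11, 2.37 and 2.11 in NTC e2. The peptides were applied in different experiments, and the difference between them was not tested.

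The largest change after flg15 was that of Solyc09g011560, which read 6.94, 6.44 and 6.40 after flg15 and 3.54, 3.89 and 3.62 in NTC e2, a change of 2.91. NTC e1 read 6.42, 6.23 and 6.28, so the flg15 arrays stood near the control of the other experiment. The NTC e2 arrays were the lowest of all 21 for this member.

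The other 54 members were those not listed for flg15, so that their flg15 values were limited by the choice and are a description. Their median change was -0.01 and their range was -1.28 to 0.84 on the log2 scale. At the lower end stood Solyc12g057080 with 4.60, 5.38 and 4.54 against 5.84, 6.51 and 6.00 in NTC e2, and at the upper end Solyc01g107780 with 3.69, 4.70 and 4.18 against 3.56, 3.12 and 3.37. The members that rose most after SA, such as Solyc11g007500, Solyc12g014010 and Solyc06g009040, changed by 0.23, -0.29 and -0.21 after flg15.

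The controls themselves differed for part of the members. Mock-sprayed plants of experiment 2 were lower than those of experiment 1 in 13 of the 60 members, beside 0.931% of all probe sets, and higher in 1, beside 0.854%. The comparison was added after the values had been seen, and NTC e1 had entered the choice of members. The largest were Solyc09g011560 (-2.63, SE 0.31, limma adjusted p = 2.22e-05), Solyc12g042600 (-2.53, SE 0.20, limma adjusted p = 1.91e-07) and Solyc12g057060 (-2.13, SE 0.45, limma adjusted p = 0.00663), against 3.15 (SE 0.36, limma adjusted p = 1.23e-05) for Solyc12g057080. Among the 13 were 7 UDP-sugar transferases, 3 glutathione transferases and 3 ABC transporters, including both subfamily C members, with -1.71 for Solyc03g007530 and -1.22 for Solyc07g065320. Other differences between the experiments cannot be told apart from the plants used, since each group lay in 1 experiment.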

How the data were processed

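The 21 arrays were GeneChips for tomato genes hybridised with leaf RNA. The authors corrected background, normalized between arrays and summarized probes by RMA, and deposited log2 values. Precision is limited by having 3 arrays in a group. A linear model with 1 mean per group and a constant prior was fitted to the 67795 probe sets in limma 3.58.1 (R 4.3.3), and a call, two-sided, needed a 2-fold change either way together with a Benjamini-Hochberg adjusted p under 0.05. The scripts were tested on simulated data. Alternatives changed scaling, prior, weights, filter, thresholds, control and arrays used. The labels number the replicates as biological. Deviations of same-numbered arrays had a median r of 0.08 (from -0.38 to 0.24), against -0.05 for different numbers (from -0.34 to 0.39). Over 0.1 were 14 of 33 same-numbered pairs and 15 of 66 others, so a weak pairing by number is not excluded. The main fit used no pairing, and a replicate block was run as an alternative.

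Members and lists were chosen with earlier results of these data known. Named are members of the peptide sheets, the largest changes in each family after SA, JA and ethylene, the largest JA against ethylene differences, and runs; others were added after their values were seen. RefSeq names matched 50 of 60 members, and descriptions are those of RefSeq transcripts in the array annotation of the sheets. The SA glucosyltransferase text of Solyc08g006330 is instead that of its locus in the same annotation. Other members of these families and the supply of glutathione were to be found by description; without descriptions the latter was taken by array symbol, and the former, like promoter and protein sequence, was not analysed here.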

Additional observations from a re-analysis of the deposited data

Results flagged for a closer look

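JA and ethylene, as treatments of the same experiment, differed in 14 members by limma's test of the difference itself, and each was flagged for that reason. On the log2 scale, JA minus ethylene was 5.27 for Solyc07g056480, 3.76 for Solyc01g105450 and 3.66 for Solyc12g057060. It was 1.87 for Solyc03g078490, 1.70 for Solyc01g095620, 1.70 for Solyc10g085890, 1.68 for Solyc09g092500 and 1.59 for Solyc10g085880. Smaller differences were 1.36 for Solyc03g007530, 1.15 for Solyc07g056420 and 1.15 for Solyc12g042600. Ethylene was the higher group for Solyc02g068900 (-2.38), Solyc12g057080 (-2.16) and Solyc07g065320 (-1.75).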

How the results depend on the processing

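The 3 members higher after ethylene than after JA kept that count under every alternative run. So did the 58 past the thresholds after SA, but these were chosen by SA values, with log2 changes of at least 2.01. Their count was therefore largely set by the choice. The 11 higher after JA than after ethylene ranged from 10 to 13 with 1 array left out and from 10 to 15 otherwise, and the 13 lower in NTC e2 from 11 to 13 and from 10 to 15. With only the arrays of the compared groups, higher members were 1 for BP178 and 7 for ethylene, and the lower member after ethylene became 0. At an adjusted p below 0.01 the counts were 2 for BP178 and 3 for flg15, and the lower members after JA and ethylene were 0 each. Without a minimum FC, 2 were lower after JA, 3 lower after ethylene, and 1 of the 54 members not listed for flg15, which the listing had set at 0, was higher. With NTC of both experiments, 14 were higher after BP178 and 0 lower after ethylene. That control crosses the experiments, and NTC e2 was itself lower than NTC e1 in 13 of the 60 members. With NTC of experiment 2, 25 were higher after JA, beside 2.3% of all probe sets. Shares of all probe sets under the other alternatives are not given here, so these counts describe the members only. With 1 array left out, higher members ranged from 2 to 5 for BP178, from 4 to 5 for flg15, from 13 to 18 for JA and from 6 to 11 for ethylene (6 without ethylene replicate 1), and lower members from 0 to 1 for JA and from 0 to 1 for ethylene. Changes of direction occurred with NTC of experiment 2: 0.20 after JA and 0.053 after ethylene for Solyc05g053890, and -1.52 after ethylene for Solyc12g057080. The 2 controls differed in these members: Solyc05g053890 had means of 6.52 in NTC e1 and 5.24 in NTC e2. For Solyc12g057080, NTC e2 minus NTC e1 was 3.15. The turns in direction follow from these control levels, and why the controls differed was not tested. The replicate block left 4 members higher for BP178, 5 for flg15, 16 for JA and 11 for ethylene, and of the named calls it ended that of Solyc09g091670 after BP178 (adjusted p = 0.0688). Of 95 calls of named genes, 75 stood under every alternative run and 76 with any 1 array left out. These 95 include calls of the treatments that chose the members and those of GSH1 and GPXle-1. They leave out members named outside the rule. Every SA call among them stood, so the totals do not show how firm the JA and ethylene calls are. Of the 39 members below the upper quartile of NTC e2 and the 21 above it, 4 and 7 were higher after JA than after ethylene, 4 and 1 after BP178, and 37 and 21 after SA, and the part of signal over background in this was not tested.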
